A study of Mus musculus with 8 samples.

Results

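The 6 genes studied belong to the cytosolic HSP90, mitochondrial HSP60 and small heat shock families. Hsp90aa1, Hsp90ab1, Hspd1, Hspe1, Cryab and Hspb1 were followed in single-cell RNA sequencing of the mouse hippocampus. They were chosen by name as 6 of the 17143 genes in the deposited count table, and all 6 were present. The exposed group held 4 mice, 2 females and 2 males, whose a/a dams drank water with lead (Pb) acetate at 32 ppm, starting 2 weeks ahead of mating and ending with lactation. The control group held 4 a/a mice, 2 females and 2 males, from dams kept without lead. All offspring had Pb-free water after weaning and were aged 5 months, so the tissue was taken long after the exposure ended. Mice are named by group, sex and number, so Pb F1 is exposed female 1. Each litter gave 1 male and 1 female, but the labels do not tie mice to litters, and p-values below treat mice that may share a dam as independent.

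Hsp90aa1 encodes the inducible and Hsp90ab1 the constitutive form of cytosolic HSP90, an ATP-driven chaperone dimer that finishes the folding of kinases, steroid receptors and other clients with the help of co-chaperones. Hspd1 (HSP60) and Hspe1 (HSP10) encode the barrel and the lid of the chaperonin that folds proteins inside mitochondria. Cryab (alpha B-crystallin) and Hspb1 (HSP25, the mouse counterpart of human HSP27) are small heat shock proteins, which hold unfolded proteins without using ATP and bind actin and intermediate filaments; Cryab is abundant in myelinating glia and in muscle. Heat shock factor 1 (Hsf1) can induce all of these families, and it binds arrays of inverted GAA units, the heat shock element.

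The genes lie on 5 chromosomes of the mouse build GRCm38 (mm10), by GENCODE vM21. Hspd1 (chr1:55077835-55088243, minus strand) and Hspe1 (chr1:55088132-55091307, plus strand) stand head to head and overlap at their 5′ ends. Hspb1 is at chr5:135887919-135889563 (plus), Hsp90aa1 at chr12:110690605-110702728 (minus) and Hsp90ab1 at chr17:45567775-45573271 (minus). Cryab at chr9:50751325-50756636 (plus) overlaps the first part of Hspb2 on the other strand (chr9:50751078-50752354). The sources used here do not say whether counting used strand, so Cryab and Hspb2 reads from that overlap cannot be told apart. Annotated pseudogene copies of Hspd1 and Hspe1 make their counts uncertain where reads match a copy. Promoter windows (250 bases before to 50 after a transcript start) were found in the RefSeq table of GRCm38.p6 for 3 of the 6 genes, Hspd1, Hspe1 and Hspb1. Each of these genes had a window with paired heat shock element units, searched as GAANNTTC and TTCNNGAA. Each motif is its own reverse complement, so both strands were covered. The 2 stretches below are shown because they carry those matches, which are in capitals. The Hspe1 stretch (chr1:55088053-55088082, plus strand) lies between the Hspe1 start and an Hspd1 start 216 bases away on the other strand. It holds 1 run of 18 bases, made of TTCTAGAA, GAACCTTC and TTCCGGAA overlapping by 3 letters, begins 89 bases before the Hspe1 start and, read on the other strand, 144 bases before an Hspd1 start. The window of the other Hspd1 start, at 55088243, held no match, and the run lies downstream of that start. The Hspb1 stretch (chr5:135887669-135887918, plus strand) is the 250 bases before its start and holds GAAGTTTC 117 and GAACCTTC 97 bases upstream.
Hspe1: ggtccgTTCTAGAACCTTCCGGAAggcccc
Hspb1: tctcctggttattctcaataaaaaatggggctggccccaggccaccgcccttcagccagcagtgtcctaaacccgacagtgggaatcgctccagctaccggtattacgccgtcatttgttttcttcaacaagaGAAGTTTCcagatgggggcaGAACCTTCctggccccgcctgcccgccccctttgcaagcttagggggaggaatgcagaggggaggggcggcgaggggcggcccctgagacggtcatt
Of all 32851 windows in the table, 7.86% held GAANNTTC, 8.52% held TTCNNGAA and 15.1% held either. A run of 3 or more units, as between Hspd1 and Hspe1, stood in 0.603% of windows. A match describes letters only and shows no binding.

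After filtering, 5175 of 5258 cells were kept, 3555 from Pb and 1620 from control mice, with 211 to 1157 cells and 1749079 to 8508064 UMIs (unique molecular identifiers, 1 per captured transcript molecule) per mouse. Cells fell into 23 clusters, formed without the 6 genes or any other chaperone or immediate early gene. In all, 8 classes had at least 10 cells in at least 3 mice per group and were tested: Microglia-like (1291 cells), Oligodendrocyte-like (1262), Endothelial-like (762), Astrocyte-like (272), Smooth muscle-like (148) and Cajal-Retzius-like (110) cells, and 2 unnamed clusters. Cluster 1 (558 cells) carried endothelial markers but was led by hemoglobin genes, and cluster 5 (203 cells) carried pericyte and endothelial markers together. The label names the hippocampus, yet principal neurons were nearly missing: Rbfox3 had 0.645 and Slc17a7 1.34 counts scaled to 1000000 per sample (CPM) over all cells, and the Cajal-Retzius-like cells, with Reln and Lhx1 among the leading genes, were the only neuronal class. Of the 71 cells of oligodendrocyte cluster 21, 69 came from control M2. Cell barcodes shared by libraries numbered 32, covering 91 cells. The Astrocyte-like class lacked Pb F2 and control M1, the Cajal-Retzius-like class lacked Pb M1 and control F1, and the Smooth muscle-like class lacked control F2, each for having fewer than 10 cells.

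Levels of all 6 genes lay higher in Pb than in control mice in every class tested, by amounts that edgeR did not separate from the spread between mice once p-values were adjusted over all genes. The log2 fold change (Pb over control, from the summed UMIs of each mouse in a class, tested by the quasi-likelihood method of edgeR with sex as a covariate) was above 0 in 48 of 48 pairs of gene and class and in 6 of 6 for all cells together, and ran from 0.083 (Hsp90ab1, Endothelial-like) to 1.17 (Cryab, Cajal-Retzius-like) in the classes. Among all genes tested, 45.8% (all cells) to 49.8% (Smooth muscle-like) had an estimate above 0. The pairs come from the same mice and are not independent. Of 990 estimates under alternative settings, which are refits of the same data, 985 were above 0. The smallest Benjamini-Hochberg adjusted p of edgeR among the 54 tests was 0.332 (Hsp90aa1, Smooth muscle-like), so 0 members were called (39 of 54 at an unadjusted edgeR p under 0.05). At that threshold edgeR called 0% of genes (0 genes) in each of 8 units, and in Astrocyte-like cells 1 gene of 2790 (0.0358%), the predicted gene Gm26870 (log2 fold change -3.11, SE 0.44), chosen here after its value was seen. DESeq2, run as an alternative, called 15 of 12989 genes in all cells and 6 of 8119 in Microglia-like cells. Those included Cryab (all cells) and Hspe1, Cryab and Hsp90aa1 (Microglia-like).

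The share of genes at an unadjusted edgeR p under 0.05 and higher in Pb gives the background against which the 6 genes can be read. In Microglia-like cells 6 of 6 met that rule, against 1.95% of the 8119 genes tested. In cluster 5 and in Smooth muscle-like cells 6 of 6 met it, against 2.17% and 1.96%. The count was 5 of 6 in cluster 1 (background 1.96%), Oligodendrocyte-like cells (1.57%) and all cells (2.99%), and 4 of 6 in Endothelial-like cells (1.96%). It was 1 of 6 in Astrocyte-like (2.94%) and Cajal-Retzius-like cells (1%), the 2 classes with only 3 mice per group. A second description asks for how many genes the CPM of every Pb mouse lay above that of every control mouse. This held for 4 of the 6 in all cells (2.37% of all genes), in cluster 1 (1.65%) and in Smooth muscle-like cells (2.72%), for 3 in cluster 5 (1.59%) and Cajal-Retzius-like cells (3.91%), and for 2 in Microglia-like (1.18%) and Astrocyte-like cells (6.56%). It held for 1 in Oligodendrocyte-like (1.61%) and 0 in Endothelial-like cells (1.4%). The 6 genes were picked with such results known and move together, so these counts describe them and do not test them. The median of the 6 log2 fold changes was 0.71 in Microglia-like, 0.64 in Smooth muscle-like, 0.36 in Oligodendrocyte-like and 0.32 in Endothelial-like cells, where the median of all genes lay between -0.014 and -0.0017. Whether the classes differ from each other in this was not tested.

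**Figure D1:**
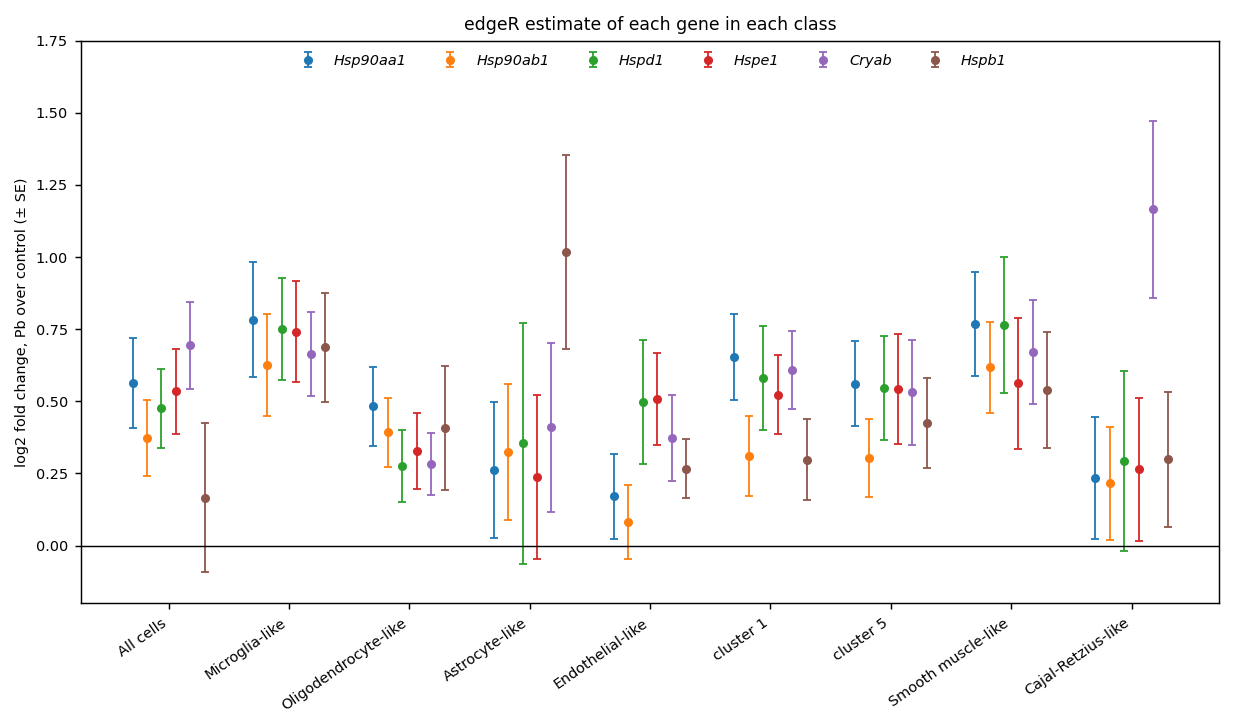
Log2 fold change of each gene, Pb over control, from edgeR, in all cells and 8 classes; points are estimates and bars their standard errors. All 54 points lie above 0, from 0.083 to 1.17, and Hsp90ab1 in Endothelial-like cells lies nearest to 0.

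The 2 cytosolic HSP90 genes lay higher with Pb in microglia, the resident macrophages of the brain. Hsp90aa1, the inducible form, had 3082, 1591, 3211 and 3343 CPM in the Microglia-like cells of Pb F1, F2, M1 and M2, and 1444, 1141, 1514 and 2522 CPM in those of control F1, F2, M1 and M2. In 3 Pb mice the level lay above every control mouse. Pb F2 stood with the controls, and control M2 was the highest of its group. The log2 fold change was 0.78 (SE 0.20, edgeR adjusted p = 0.687). Hsp90ab1, the constitutive form, had 2798, 1764, 2708 and 2485 CPM in Pb mice and 1675, 1225, 1395 and 2067 CPM in control mice in the same order. The same mice, Pb F2 and control M2, made the groups overlap (log2 fold change 0.62, SE 0.18, edgeR adjusted p = 0.751).

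Among the vessel classes, Hsp90aa1 separated the mice of both groups in Smooth muscle-like cells and in clusters 1 and 5, but not in Endothelial-like cells. Hsp90aa1 in Smooth muscle-like cells had 1461, 1426, 1915 and 1854 CPM in Pb F1, F2, M1 and M2 and 1074, 768 and 1092 CPM in control F1, M1 and M2. The groups did not overlap, and the log2 fold change was 0.77 (SE 0.18, edgeR adjusted p = 0.332). The mitochondrial share of UMIs in these cells did not overlap either, at 3.76% to 4.13% in Pb and 4.30% to 5.07% in control mice (exact permutation p = 0.0286), and its part in the result was not tested. In cluster 1 it had 1637, 1498, 1685 and 1856 CPM against 1290.1, 892, 959 and 1031 CPM, again without overlap (0.65, SE 0.15, edgeR adjusted p = 0.498). Median UMIs per cell were 5628 with Pb against 6387 without in cluster 1, and 4699 against 5624 in Endothelial-like cells (exact permutation p = 0.0286 for each), and their part in the results was not tested. In cluster 5 Hsp90aa1 had 1643 ± 118 CPM with Pb against 1099.9 ± 165 CPM without (SD, n = 4 each), and Hsp90ab1 2352 ± 236 and 1888 ± 173 CPM, both without overlap. Endothelial-like cells had Hsp90ab1 at 2345 ± 193 and 2197 ± 359.9 CPM, a difference well inside the spread. Hsp90aa1 had 1407 CPM with Pb against 1240 CPM without in the same cells, and the groups overlapped (0.17, SE 0.15, edgeR adjusted p = 0.999). In Oligodendrocyte-like cells, which make myelin, Hsp90aa1 had 2130.3, 2483, 3078 and 3038 CPM in Pb mice and 1837, 1472, 1654 and 2649.8 CPM in control mice. Here control M2, most of whose cells sat in its own cluster, lay above 2 of the 4 Pb mice (0.48, SE 0.14, edgeR adjusted p = 1.000).

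The mitochondrial chaperonin pair followed the same mice. Hspd1, the HSP60 barrel, had 401, 214, 333 and 332 CPM in the Microglia-like cells of Pb F1, F2, M1 and M2 and 157, 166, 196 and 255 CPM in those of the controls. Its partner Hspe1, the HSP10 lid, had 851, 439, 828 and 650.5 CPM and 343, 457, 401 and 462 CPM. For both genes 3 Pb mice lay above every control and Pb F2 did not, with log2 fold changes of 0.75 (SE 0.18) and 0.74 (SE 0.17) at an edgeR adjusted p of 0.564 for each. Without Pb F2, the lowest Pb mouse for Hspe1, Hspe1 passed (log2 fold change 0.90, edgeR adjusted p = 0.0291), as 1 of 5 genes among 8775. Leaving out any other single mouse made none of the 6 genes pass in Microglia-like cells. In Oligodendrocyte-like cells Hspd1 was the single gene of the 6 whose groups did not overlap, at 141, 148, 164 and 151 CPM in Pb against 132, 115, 137 and 117 CPM in control mice, a narrow difference (0.27, SE 0.12, edgeR adjusted p = 1.000). With its 2 larger clusters weighted equally the log2 ratio was 0.47. Cluster 1 had Hspd1 at 147 ± 39.8 and 98.0 ± 4.31 CPM and Hspe1 at 257 ± 26.8 and 178 ± 15.3 CPM (SD, n = 4 each), with no overlap for either. In Endothelial-like cells control F1 had the highest Hspd1 of all 8 mice (186 CPM against 134 to 176 in Pb mice), and the other 3 controls had 77.9 to 102 CPM.

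**Figure D2:**
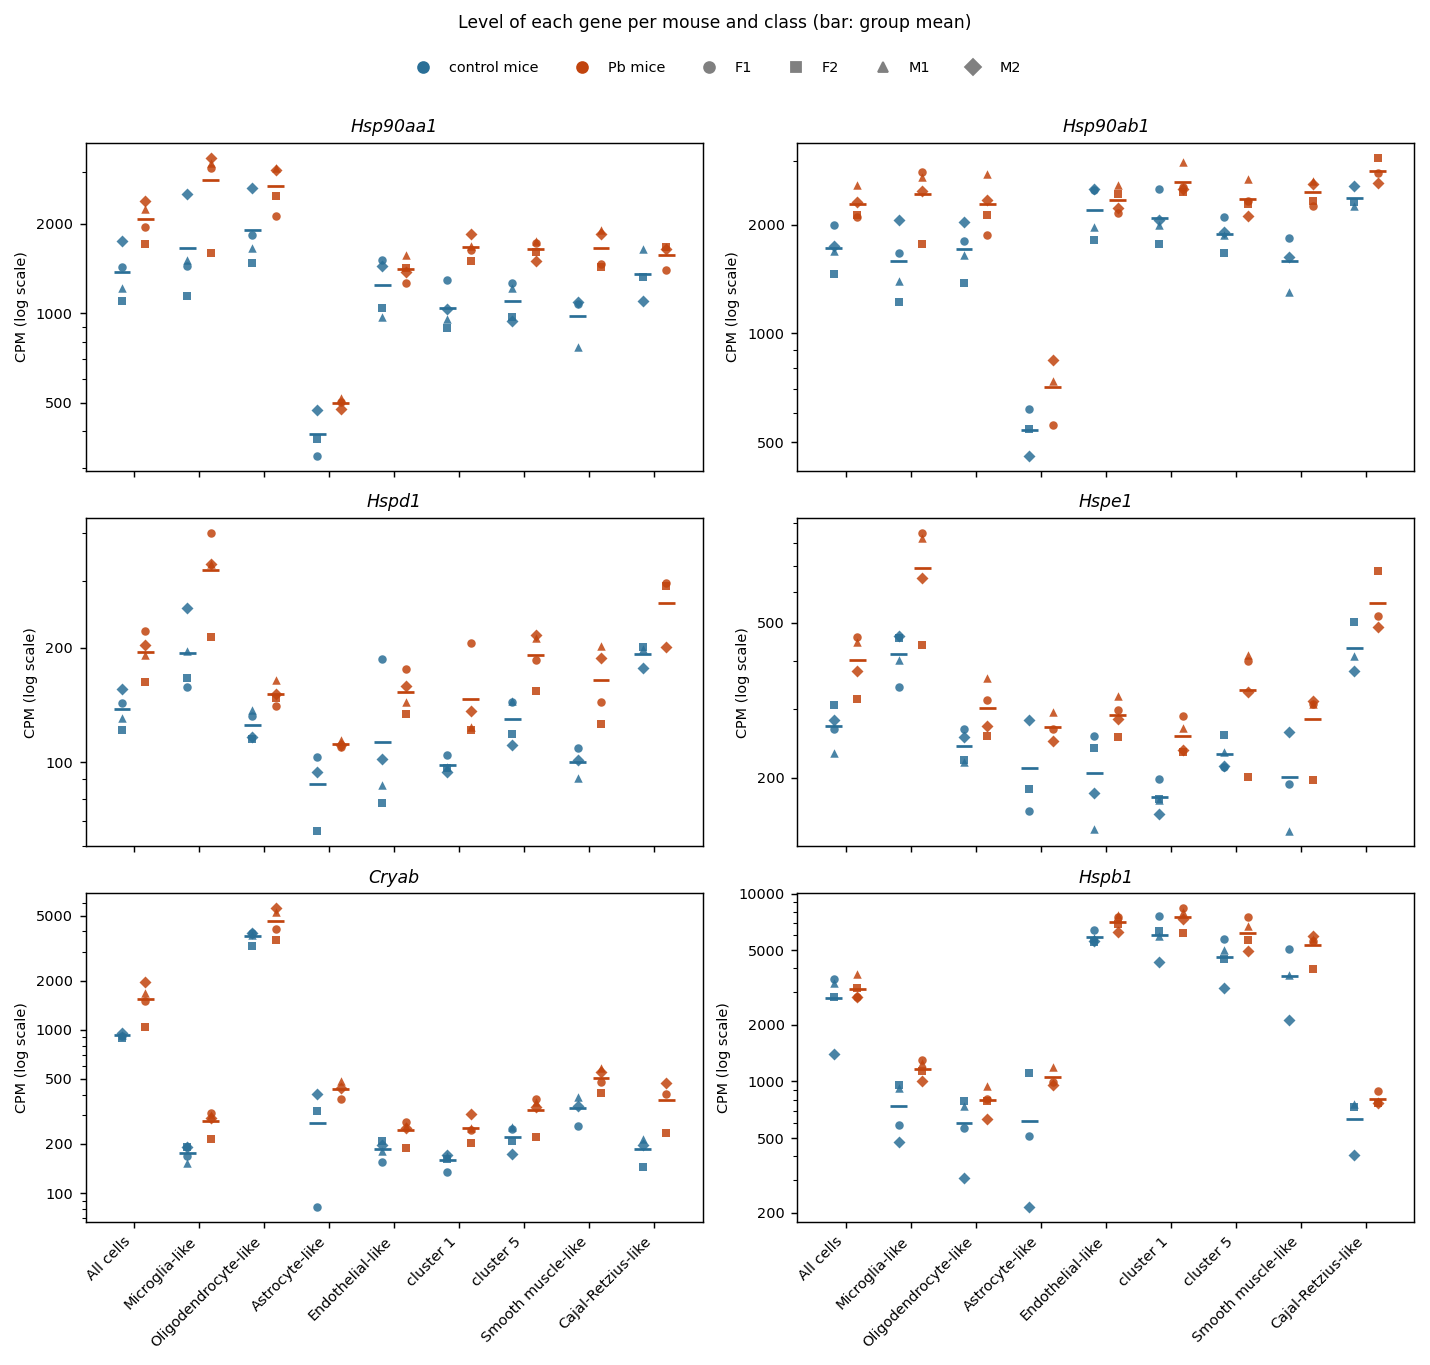
Level of each of the 6 genes in CPM (log scale) per mouse, in all cells and 8 classes; each point is 1 mouse, shapes give its label within the group, and bars are group means. In Microglia-like cells Pb F2 (red square) stands apart from the other Pb mice for Hsp90aa1 at 1591 against 3082 to 3343 CPM.

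Cryab, the alpha B-crystallin gene, was an oligodendrocyte gene in these cells. Oligodendrocyte-like cells had 4171, 3536, 5275 and 5540.4 CPM in Pb F1, F2, M1 and M2 and 3931, 3261, 3806 and 3916 CPM in the controls. The level in 3 Pb mice lay above every control, and Pb F2 lay below 3 of them (log2 fold change 0.28, SE 0.11, edgeR adjusted p = 1.000). Summed over all cells it had 1509.5, 1034, 1692 and 1958 CPM in Pb mice against 914, 897, 932 and 959.9 CPM in controls, without overlap (0.69, SE 0.15, edgeR adjusted p = 0.981). In that sum, more cells of a type and more RNA per cell cannot be told apart: the 18 oligodendrocyte markers together had 26565 ± 2385 CPM with Pb against 21471 ± 3343 CPM without (SD, n = 4 each; p = 0.0571, two-sided exact permutation). Within classes the largest estimate of any of the 6 genes was Cryab in Cajal-Retzius-like cells, at 403, 234 and 473 CPM in Pb F1, F2 and M2 and 144, 214 and 198 CPM in control F2, M1 and M2. The groups did not overlap there (1.17, SE 0.31, edgeR adjusted p = 0.999), with 10 to 31 cells per mouse.

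Outside oligodendrocytes, Cryab was read beside the oligodendrocyte RNA that these cells also carried. Myelin and other oligodendrocyte marker UMIs made up 5244 to 10914 CPM of Microglia-like cells, so Cryab was set against them, a ratio chosen after seeing the data. In Oligodendrocyte-like cells Cryab had 53.8 ± 10.4 UMIs per 1000 marker UMIs (SD, n = 8), and in Microglia-like cells 33.5 ± 13.2, lower than in the oligodendrocytes of the same mouse in 8 of 8 mice. Cluster 1 was lower in 8 of 8 and the Endothelial-like class in 7 of 8. The ratio was above that of the oligodendrocytes of the same mouse in 4 of 6 mice in Astrocyte-like cells and in 2 of 8 in cluster 5. It was also above in Pericyte-like (4 of 4), Oligodendrocyte precursor-like (5 of 5) and Choroid plexus-like cells (3 of 3). In Microglia-like cells Cryab had 278 ± 43.6 CPM with Pb against 176 ± 18.9 CPM without (edgeR adjusted p = 0.564, no overlap). The oligodendrocyte markers there had 6842 ± 860.0 against 7858 ± 2830.1 CPM (exact permutation p = 0.514). In Oligodendrocyte-like cells the ratio itself was 59.9 ± 11.5 with Pb against 47.6 ± 4.58 without (exact permutation p = 0.143). The part of oligodendrocyte RNA in the group difference was not tested. The ratio was 41.5 ± 10.2 with Pb against 25.5 ± 11.3 without in Microglia-like cells (exact permutation p = 0.0857), 44.3 ± 10.4 against 27.5 ± 12.8 in cluster 1 (exact permutation p = 0.143) and 41.6 ± 9.51 against 32.0 ± 15.5 in Endothelial-like cells (exact permutation p = 0.286; SD, n = 4 each). Which cells the Cryab UMIs of these classes came from was not tested. Smooth muscle-like cells, a type known for Cryab, had 85.4 ± 35.8 per 1000 (n = 7), above the oligodendrocytes in 6 of 7 mice, and Cajal-Retzius-like cells were above in 2 of 6. In Smooth muscle-like cells Cryab had 478, 408, 580 and 550.1 CPM in Pb mice against 257, 390.0 and 344 CPM in controls, without overlap (0.67, SE 0.18, edgeR adjusted p = 0.461). The ratio itself differed less clearly there, at 103 ± 29.3 in Pb (n = 4) and 62.1 ± 33.7 in control mice (n = 3; exact two-sided permutation p = 0.143).

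**Figure D3:**
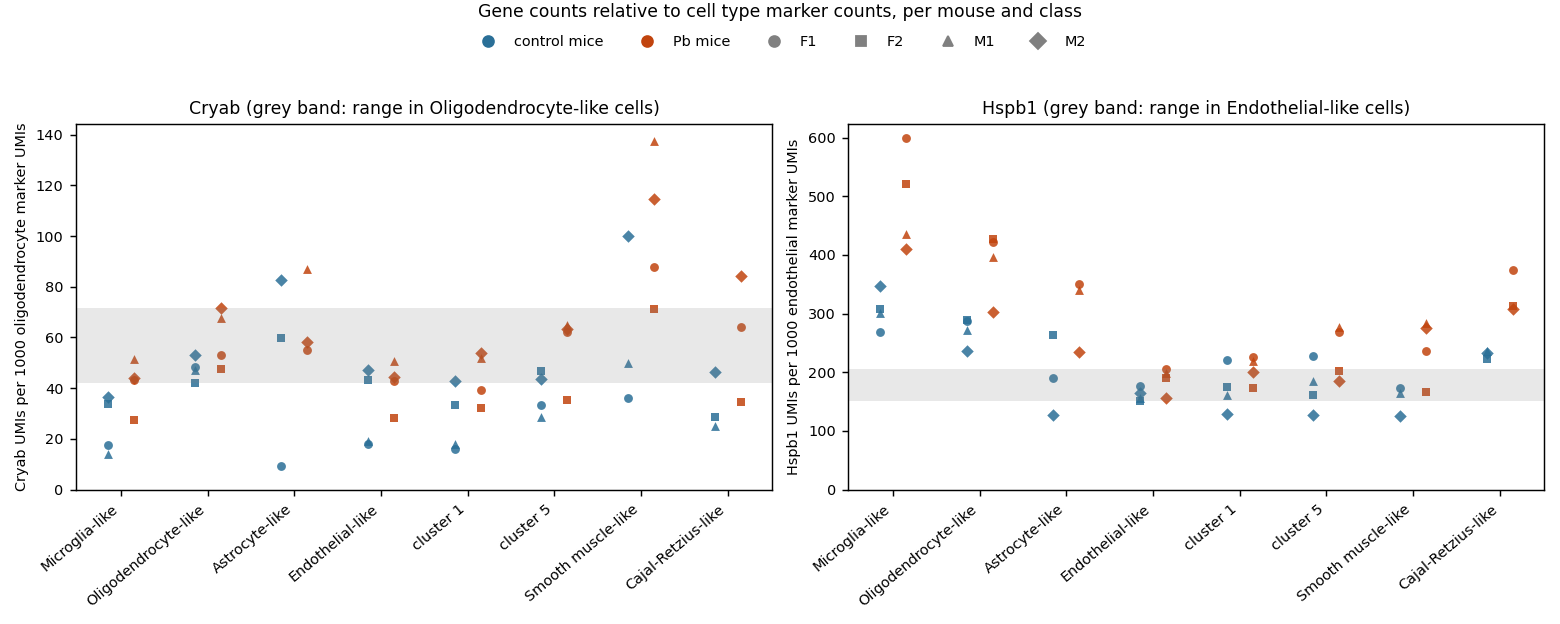
Cryab UMIs per 1000 oligodendrocyte marker UMIs (left) and Hspb1 UMIs per 1000 endothelial marker UMIs (right), per mouse and class; grey bands span the values in the class that supplies the markers. Cryab in Microglia-like cells (at most 51.6) lies mostly under the oligodendrocyte band, and Hspb1 in Microglia-like cells (269 to 599) lies above the endothelial band.

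Hspb1, the HSP25 gene, was highest in the vessel classes. Microglia-like cells had 1301, 1132, 1251 and 1002 CPM in Pb F1, F2, M1 and M2 and 589, 959, 926 and 473 CPM in the controls, so every Pb mouse lay above every control (log2 fold change 0.69, SE 0.19, edgeR adjusted p = 0.728). Set against endothelial RNA carried by the droplets, in a ratio chosen after seeing the data, Hspb1 had 399 ± 116 UMIs per 1000 endothelial marker UMIs in Microglia-like and 175 ± 21.1 in Endothelial-like cells (SD, n = 8), higher in 8 of 8 mice. Microglia were not alone in this: the ratio was also higher in Oligodendrocyte-like (329 ± 74.5, 8 of 8 mice), Cajal-Retzius-like (6 of 6) and Astrocyte-like cells (5 of 6). It was higher in 4 of 4 mice in Pericyte-like cells, whose own RNA the endothelial markers do not measure. Which cells these Hspb1 UMIs came from was not tested. In Endothelial-like cells the level itself was 7489, 6876, 7722 and 6284 CPM in Pb mice against 6423, 5528, 5827 and 5602 CPM in controls, with Pb M2 below control F1 (0.27, SE 0.10, edgeR adjusted p = 0.999). Astrocyte-like cells had 994.9, 1201 and 959.8 CPM in Pb F1, M1 and M2 but 515, 1107 and 215 CPM in control F1, F2 and M2, a control spread that covers much of the Pb range (1.02, SE 0.34, edgeR adjusted p = 0.687). Summed pericyte markers in these cells were 274 to 659 CPM in Pb and 197 to 227 CPM in control mice (exact permutation p = 0.100, the smallest possible), and their part in the result was not tested. When 1 mouse was left out, the Hspb1 estimate in Astrocyte-like cells ran from 0.24 to 2.32. It was 1.01 (edgeR adjusted p = 0.0479) without Pb M2. The value of 2.32 came without Pb F1, when no Pb female was left. With sex as a covariate, that fit set Pb M1 and M2 against control M2 alone, the lowest of these mice. Over all cells Hspb1 had the smallest estimate of the 6 genes, 0.17 (SE 0.26, edgeR adjusted p = 0.991). There control M2 had 1393 CPM and the other 7 mice 2807 to 3722 CPM, and without control M2 the estimate was -0.076. Control M2 also had the lowest summed endothelial marker level of all cells (8397 CPM, against 10659 to 19402 CPM in the others), and its part in the result was not tested.

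On the scale of single cells, where each cell counts the same, the direction was the same in 54 of 54 comparisons of mean UMIs per 10000 (CP10K). In Microglia-like cells the mean over mice for Hsp90aa1 was 28.96 CP10K with Pb against 18.03 without, 24.8 and 16.5 for Hsp90ab1, 3.09 and 2.002 for Hspd1 and 6.82 and 4.33 for Hspe1. For Hsp90aa1 the median cell had 15.3 and 8.08 CP10K, and the 90th percentile cell 75.2 and 45.6. Of the 54 comparisons, 11 reached an exact two-sided permutation p of 0.0286, the smallest possible with 4 mice against 4 or 3, and these p-values are not adjusted. They were Hspb1 and Cryab in Microglia-like, Hspb1 and Hspe1 in Endothelial-like, Hsp90aa1 and Hsp90ab1 in cluster 5, Cryab and Hsp90ab1 in Smooth muscle-like and Hspd1 in Oligodendrocyte-like cells, Cryab in cluster 1, and Hsp90ab1 in all cells. Astrocyte-like and Cajal-Retzius-like cells, with 3 mice against 3, could not reach it, as their smallest possible permutation p was 0.1. No share of all genes at that p was computed, so the count has no background. The share of Microglia-like cells with a Hspe1 UMI, after each cell was thinned to 1000 UMIs, reached 40.2% with Pb against 27.3% without (82.3% and 70.3% as deposited), and with a Hspd1 UMI 24.7% and 14.7% (59.9% and 48.1%).

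The Microglia-like class was made of 4 clusters, whose differences were not tested against each other. In cluster 7, with leading genes Tagap, Hmox1 and Cebpa, Hsp90aa1 had 4458 ± 1358 CPM with Pb against 2121 ± 559 CPM without (SD, n = 4 each; p = 0.0571, exact permutation), and Hspd1 491 ± 104 and 286 ± 42.3 CPM without overlap. Cluster 6, with the cytokine genes Il1a, Tnf and Ccl3 among its leading genes, had less Hsp90aa1 in both groups, 1749 ± 458 and 971 ± 375 CPM (exact permutation p = 0.0857), and Hsp90ab1 did not overlap there (2159 ± 280.2 and 1345 ± 316 CPM). In cluster 20, which had among its leading genes the homeostatic microglial genes P2ry13, Cx3cr1 and P2ry12, the values went the other way for Hsp90aa1, 2923 ± 678 with Pb against 3994 ± 3377 CPM in control mice (exact permutation p = 0.714). Some mice had only 4 cells in that cluster. With the 4 clusters weighted equally in each mouse, the log2 ratio was 0.43 for Hsp90aa1, 0.44 for Hsp90ab1, 0.47 for Hspe1 and 0.76 for Hspd1, against edgeR estimates of 0.78, 0.62, 0.74 and 0.75 for the whole class.

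Across classes, Cryab was high in 1 class, Hspb1 in a block of 5, and the other 4 genes were present in all classes. In all, 11 classes had at least 10 cells in 3 or more mice, and levels below are means over mice of both groups. Hsp90aa1 ran from 2293 ± 615 CPM in Oligodendrocyte-like (SD, n = 8) and 2231 ± 905 in Microglia-like to 445 ± 75.0 CPM in Astrocyte-like cells (n = 6), 5.15 times lower than the top. Hsp90ab1 was highest in Cajal-Retzius-like cells, 2600.1 ± 301 CPM (n = 6), and again lowest in Astrocyte-like cells, 626 ± 141 CPM. Astrocytes thus had the lowest level of both cytosolic HSP90 genes and of Hspd1 (99.6 ± 18.1 CPM). Hspd1 and Hspe1 had 4 classes on top in common, Pericyte-like, Microglia-like, Cajal-Retzius-like and Oligodendrocyte precursor-like cells, with Hspe1 at 649 ± 90.6 CPM in the last (n = 5) and 217 ± 46.6 CPM in cluster 1. Cryab had 4180 ± 809 CPM in Oligodendrocyte-like cells, where the 8 mice ran from 3261 to 5540.4, and 702 ± 237 CPM in the next class, Pericyte-like (n = 4, highest 997). Hspb1 split the classes in 2 blocks: cluster 1, Endothelial-like, Pericyte-like, cluster 5 and Smooth muscle-like cells had 4597 to 6759 CPM on average, and the other 6 classes 696 to 1129.8 CPM (the highest in Choroid plexus-like cells, n = 3). Between neighbours in these orders, 0 of 60 differences passed a paired exact sign-flip test over mice after adjustment (smallest adjusted p = 0.600, 2 at an unadjusted p under 0.05). With at most 8 mice in common, the smallest possible unadjusted p of this test was 0.0078. That is too large for any single difference to pass among 60, and pairs with few mice in common could not have passed. The test therefore cannot show that neighbours are alike. Cryab lay 2.72 log2 units higher in Oligodendrocyte-like than in Pericyte-like cells, in 4 of 4 mice, where the smallest possible sign-flip p was 0.125.

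**Figure D4:**
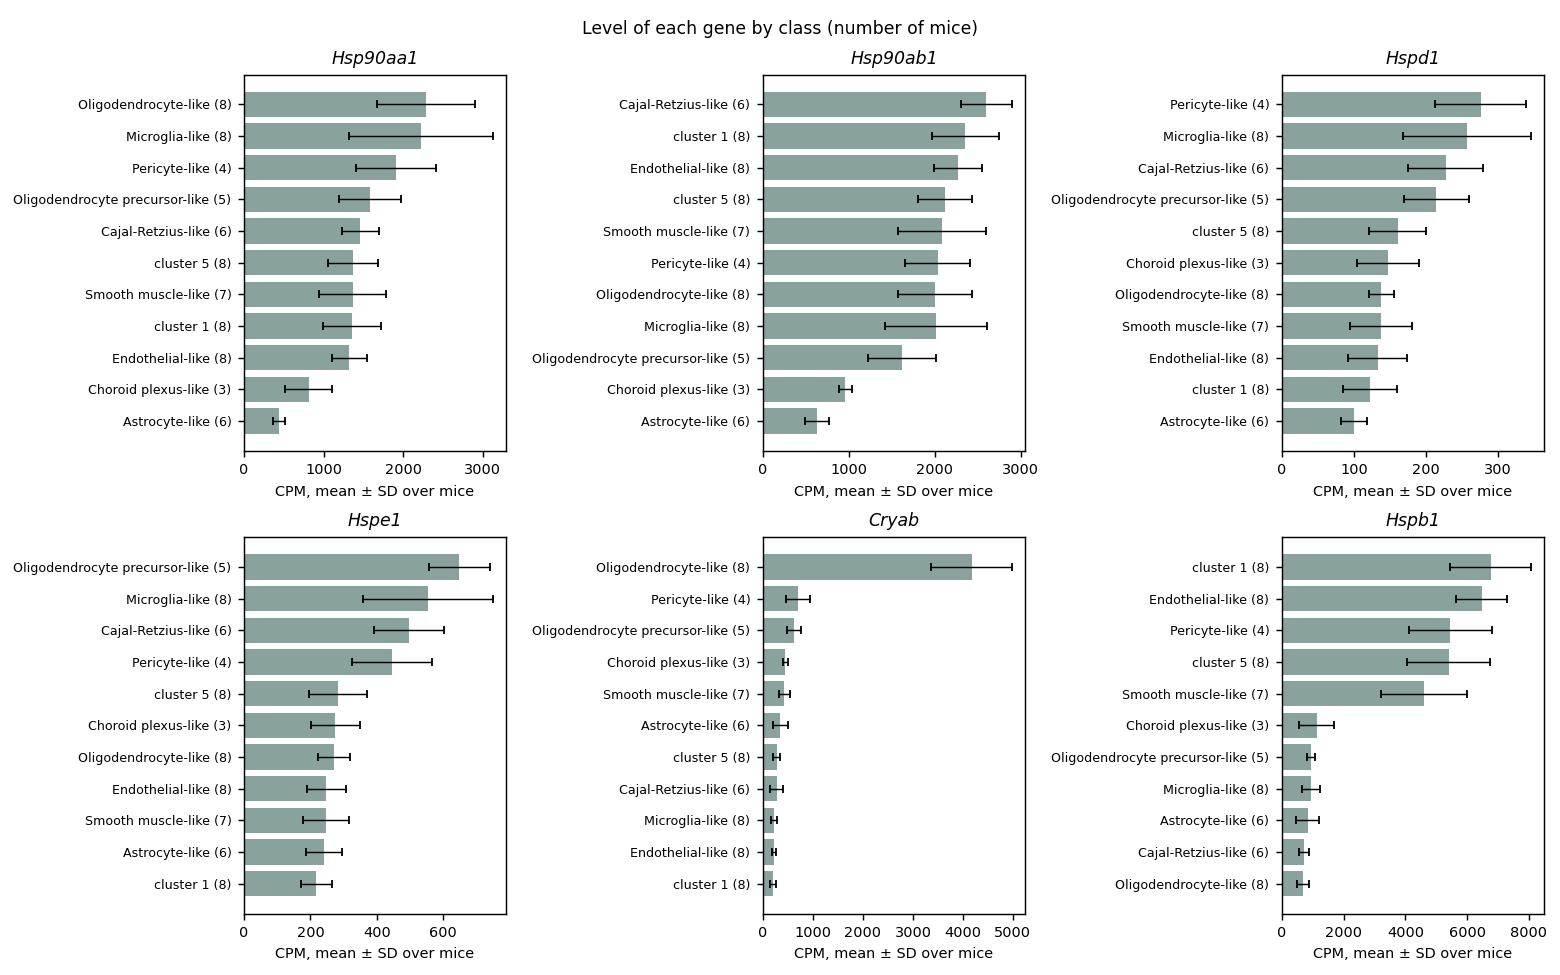
Level of each gene in 11 classes, as mean CPM over mice of both groups with SD; the number of mice stands behind each class name. Cryab stands out in Oligodendrocyte-like cells (4180 CPM) and Hspb1 in 5 vessel classes (4597 CPM and more), while Hsp90aa1, Hsp90ab1 and Hspd1 are lowest in Astrocyte-like cells.

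Within classes the genes varied together from mouse to mouse, as a description over 59 points of mouse and class that share libraries and cells. After the class mean was taken off log2(CPM + 5), Pearson's r was 0.86 between Hsp90aa1 and Hsp90ab1 and 0.78 between Hspd1 and Hspe1, the pair that shares its promoter region. Part of this is the difference between the groups: with the mean of class and group removed, r was 0.70 and 0.54. Hspb1 had 0.33 to 0.45 with the other 5 genes, and -0.17 to 0.058 once the group means were removed. Among 3618 genes, the partner with the highest r for Hsp90aa1 was Hsp90ab1, and for Hspd1 it was Hspe1. Outside the 6 genes, Hsp90aa1 was most like Dnaja1 (r = 0.75), an HSP40 co-chaperone, Hsph1 (0.67), an HSP110, and Chchd2 (0.61). Hsp90ab1 was most like Dnaja1 (0.71), Hspa1b (0.62) and Hsph1 (0.59), Hspd1 like Hsph1 (0.68), Hspa8 (0.62) and Fez1 (0.62), and Hspe1 like Hsph1 (0.70) and Ptgds (0.64). Cryab was most like Chchd2 (0.76), Ppp1r14a (0.74) and Tppp3 (0.71), and Hspb1 like Hspa1a (0.75), Slc2a1 (0.71) and Ly6c1 (0.71). Over the 8 class means, where r reflects cell type, Cryab was most like the oligodendrocyte genes Tspan2 (0.99), Pex5l (0.98) and Carhsp1 (0.98), and Hspb1 like the vessel genes Foxq1 (0.998), Abcc4 (0.998) and Atp10a (0.997). Hsp90aa1 was there most like Tmed2 (0.98), Grb2 (0.97) and Eif2s2 (0.96), Hsp90ab1 like Fam114a2 (0.98), Psmc6 (0.98) and Gm10020 (0.97), Hspd1 like Snhg12, Rpl7a and Man1a2 (each 0.94), and Hspe1 like Basp1 (0.97), Scoc (0.95) and Mrpl52 (0.94).

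**Figure D5:**
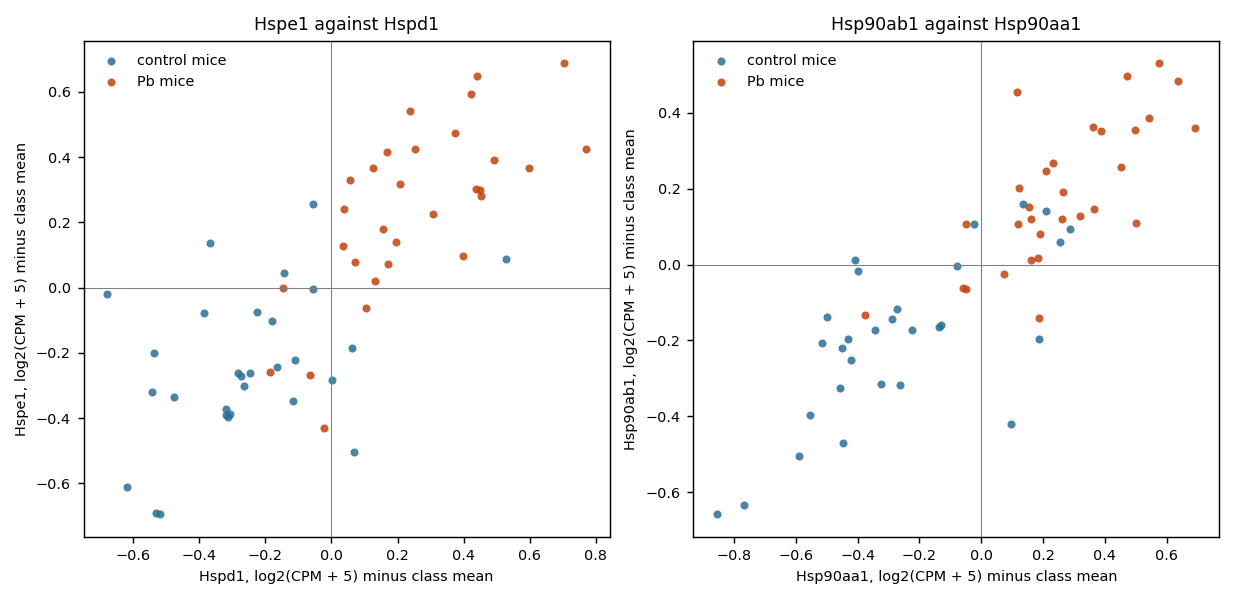
Hspe1 against Hspd1 (left) and Hsp90ab1 against Hsp90aa1 (right), each as log2(CPM + 5) minus the class mean; each of the 59 points is 1 mouse in 1 of 8 classes. Most Pb points lie at the upper right and most control points at the lower left (r = 0.78 and 0.86).

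The partners of the 6 genes were looked at by list, with the 4 most abundant of each named. None of their genes passed edgeR's adjusted threshold in any of the 9 units. Estimates of the HSP90 co-chaperones lay closer to the middle of all genes than those of the 6. In Microglia-like cells 11 of 17 tested had an estimate above 0 with a median of 0.17, and in Smooth muscle-like cells 4 of 13 with a median of -0.18. Their summed level in Microglia-like cells was 1178 ± 35.5 CPM with Pb against 1076 ± 68.3 CPM without, and the groups did not overlap (exact permutation p = 0.0286). The sum was lower with Pb in Smooth muscle-like (1393 ± 151 against 1463 ± 146 CPM) and Cajal-Retzius-like cells and higher in the other units. Fkbp4, an immunophilin of steroid receptor complexes, was above 0 in 8 of 8 classes (0.072 to 0.59), Fkbp8 in 0 of 8 (-0.38 to -0.043), Ptges3 (p23) in 7 and Cdc37, which brings kinases to HSP90, in 6. The HSP90 forms of other compartments were Hsp90b1 of the endoplasmic reticulum, above 0 in 7 of 8 classes (-0.13 to 0.28), and Trap1 of mitochondria, in 3 of 4. Genes that work beside HSP60 in mitochondria were even: in Microglia-like cells 7 of 14 lay above 0 (median -0.0053), and Hspa9 (mortalin) did so in 4 of 8 classes (-0.15 to 0.39), Grpel1 in 5 of 7, Yme1l1 in 3 of 7 and the protease subunit Clpp in 3 of 8.

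Other heat shock genes stood closer to the 6. Of the HSP70, HSP110 and HSP40 genes, 12 of 15 tested in Microglia-like cells (median 0.32), 14 of 16 in Oligodendrocyte-like (0.24) and 14 of 17 in all cells (0.25) had an estimate above 0, against 45.8% to 48.5% of all genes there. Hspa8, the constitutive HSP70, was above 0 in 8 of 8 classes (0.093 to 0.71), inducible Hspa1a in 7 (-0.16 to 1.00), and Hspa1b and Dnajb1 in 6 each. Of the small heat shock list, Bag3, which ties small heat shock proteins to HSP70, was above 0 in 6 of 6 classes (0.28 to 0.74), Hspb7 in 5 of 7, Hspb8 in 4 of 5 and Hspb11 in 2 of 4. The cytosolic chaperonin CCT had 7 of 7 above 0 in Microglia-like (median 0.20), Oligodendrocyte-like (0.28) and Endothelial-like cells (0.12). Its members Cct7 and Cct8 were above 0 in 7 of 8 classes, Cct4 in 6 of 7 and Cct5 in 5 of 8. Heat shock factors were low: Hsf1 had 21.6 and 22.2 CPM over all cells of Pb and control mice (log2 fold change -0.059), Hsf2 14.4 and 16.7 CPM (-0.27), Hsf4 3.36 and 5.19 CPM (-0.59), and Hsbp1, an inhibitor of Hsf1, 293 and 262 CPM. In classes, Hsf2 had -0.79 in Oligodendrocyte-like (12.8 and 21.3 CPM) and -0.40 in Microglia-like cells, with no adjusted call by edgeR.

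Immediate early genes, which respond within minutes to stimulation or handling, lay on the other side. Their estimates were above 0 in 5 of 21 genes in Microglia-like cells (median -0.13), 3 of 21 in Oligodendrocyte-like cells (-0.29) and 2 of 21 in all cells (-0.26). Fos was above 0 in 0 of 8 classes (-0.50 to -0.22), Junb in 1, and Jun and Jund in 2 each, with no adjusted call by edgeR. Dissociation used a heated instrument and the cells were frozen and thawed, by the labels' protocols, in both groups. Summed immediate early RNA in Microglia-like cells was 23879 to 32981 CPM with Pb against 29349 to 33808 CPM in control mice (exact permutation p = 0.400). The mitochondrial share of their UMIs reached 2.53% ± 0.382 with Pb against 3.26% ± 0.538 without (SD, n = 4 each; p = 0.0857, exact permutation), and cells per mouse were 133 to 302 and 60 to 147 (p = 0.0857, exact permutation). The summed HSP70, HSP110 and HSP40 level was 12025 ± 3599 and 7369 ± 638 CPM in the same cells (exact permutation p = 0.0571). The part of these measures in the higher chaperone levels was not tested.

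Both sexes showed the higher levels. Comparing means of Pb and control mice of 1 sex, 46 of 48 pairs of gene and class lay above 0 in females (median log2 ratio 0.35) and 47 of 48 in males (0.58). The female exceptions were Hsp90ab1 in Astrocyte-like (-0.064) and Hspb1 in Smooth muscle-like cells (-0.089), and the male one was Hspe1 in Astrocyte-like cells (-0.057). The product of exposure and sex gave 0 calls among the 54 member tests (4 at an unadjusted edgeR p under 0.05). Over all genes it called 0.129% in Astrocyte-like, 0.0648% in Smooth muscle-like and 0.033% in cluster 5, and 0% in the other 6 units. Hspb1 had the lowest p in this test, with an interaction estimate of 2.06 (SE 0.57, edgeR adjusted p = 0.283) in Astrocyte-like cells, where the female comparison had 1 Pb mouse against 2 controls and the male one 2 against 1.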

How the data were processed

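The authors deposited 1 table of whole-number UMI counts per gene and cell for 8 mice. Cell Ranger, Seurat and the build mm10 are named, with no versions, per the submitters' processing notes. Cells over 20% mitochondrial UMIs (53) and 30 further cells called as doublets by Scrublet (33 called, 0.628%) were removed. The rest were clustered with scanpy 1.11.5 (Leiden, resolution 1.0) without 98 chaperone and immediate early genes, and named from marker lists. Deposited counts were summed per mouse and class (at least 10 cells) and tested with edgeR 4.0.16 (TMM, filterByExpr, quasi-likelihood, sex as covariate, Benjamini-Hochberg adjustment over all genes tested), in R 4.3.3. The script was tested on simulated data. DESeq2 1.42.0, limma-voom (limma 3.58.1) and other settings were alternatives. CP10K means per mouse were compared by exact permutation. The 6 members and the 8 lists were chosen with earlier results of these data known. From each list the 4 genes with the highest summed CPM were named, and 3 genes per member for likeness, of which 1 is not reported here. The ratios to marker UMIs, the unadjusted-p background and the correlations with group means removed were chosen after seeing the data. Thinning left out 0 cells. Replicate numbers in the labels name mice within a sex and were not used to pair them in the main fit.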

Additional observations from a re-analysis of the deposited data

Results flagged for a closer look

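In 3 of the 78 groups of 4 mice examined, 1 mouse stood apart from the other 3 by more than Dixon's 95% critical value, where chance gives about 1 in 20 groups. Hsp90aa1 in the Microglia-like cells of Pb F2 had 1591 CPM, and the other Pb mice had 3082 to 3343 CPM. Hspe1 in the Smooth muscle-like cells of Pb F2 had 198 CPM, and the other Pb mice had 309 to 315 CPM. Hsp90ab1 in cluster 1 of Pb M1 had 2993 CPM, and the other Pb mice had 2461 to 2543 CPM. Pb F2 was the lowest Pb mouse in 25 of 48 pairs of gene and class, which include the Astrocyte-like pairs, where it had no value.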

How the results depend on the processing

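Across 20 alternative settings, 985 of 990 fold changes of the 6 genes stayed above 0. Estimates of Hspd1 moved by more than the spread between mice in 3 cases, to 0.55 in Cajal-Retzius-like and 0.45 in Smooth muscle-like cells by mean CP10K and to 0.47 in Oligodendrocyte-like cells with clusters weighted equally; these 2 settings have no adjusted p. The 5 below 0 were Hsp90ab1 in Astrocyte-like cells without control M2 (-0.024) and in Endothelial-like cells without control F2 (-0.011), Hspb1 in all cells without control M2 (-0.076), Hspe1 in Astrocyte-like cells without Pb F1 (-0.049) and Hspd1 in Astrocyte-like cells at a mitochondrial limit of 10% (-0.038). Leaving out 1 mouse reached at most 0.77, 0.19, 0.38 and 0.59 in the first 4 of these. A member passed the adjusted threshold in 12 cases without the low-count filter, in 4 with DESeq2 and in 3 with 1 mouse left out. Without the filter 60 of 15919 genes passed in Microglia-like cells, with all 6 members among them. In cluster 1 it was 32 of 15378 and in Smooth muscle-like cells 16 of 14543, with 2 members in each. In Oligodendrocyte-like cells it was 23 of 16136 and in Astrocyte-like cells 5 of 13965, with 1 member in each. Without Pb F2, 5 of 8775 passed in Microglia-like cells. In Astrocyte-like cells 5 of 2146 passed without Pb M2, and the case without Pb F1 rested on 1 control male. The cause was not tested.
Genes past the adjusted threshold numbered 15 in all cells, 6 in Microglia-like, 1 in Oligodendrocyte-like and 1 in cluster 1 with DESeq2. Without the low-count filter they numbered 5 in Astrocyte-like, 1 in Cajal-Retzius-like, 30 in Endothelial-like, 60 in Microglia-like, 23 in Oligodendrocyte-like and 16 in Smooth muscle-like cells, 32 in cluster 1 and 12 in cluster 5. Without the sex covariate Astrocyte-like cells had 0. With the replicate block, Astrocyte-like cells had 0, Cajal-Retzius-like 3, Smooth muscle-like 3 and cluster 5 had 2, and 54 of 54 member estimates were above 0. Leaving out 1 mouse gave 0 to 11 in Astrocyte-like, 0 to 2 in Endothelial-like, 0 to 3 in Oligodendrocyte-like, 0 to 5 in both Microglia-like and Smooth muscle-like cells, 0 to 4 in cluster 1 and 0 to 2 in cluster 5. Deviations of mice with the same label correlated at -0.56 to 0.11, and those of other pairs at -0.36 to 0.48. These ranges overlap and rest on few pairs, so they cannot show whether mice with the same label share more than a number.
Members whose mice did not overlap numbered 1 in all cells, 1 in Astrocyte-like, 2 in Endothelial-like and 1 in cluster 1 by mean CP10K, for which no share of all genes was computed. In what follows the share of all genes stands in brackets. At a mitochondrial limit of 10% they numbered 1 in Astrocyte-like (7.01%), 2 in Endothelial-like (1.49%) and 2 in Oligodendrocyte-like cells (1.70%). At Leiden resolution 0.5 they numbered 1 in Endothelial-like (1.53%), 1 in Microglia-like (1.46%), 2 in Oligodendrocyte-like (1.71%) and 2 in cluster 1 (1.62%). Some classes held other cells there. Cluster 1 had 349 cells, 346 of them shared with its 558 in the main clustering, and the Endothelial-like class had 971, with 759 shared of its 762. Cluster 5 had 344 cells at that resolution (196 shared) and 320 at the 10% limit (201 shared), against 203. With doublets kept the counts were 1 in Endothelial-like (1.30%) and 2 in Oligodendrocyte-like cells (1.70%), with stress genes in clustering 2 (1.34%) and 2 (1.71%), and with clusters weighted equally 1 in Microglia-like cells (share not computed). Leaving out 1 mouse gave 2 to 4 in Astrocyte-like (9.71% to 15.2%), 3 to 5 in Cajal-Retzius-like (6.67% to 9.64%), 0 to 3 in Endothelial-like (2.20% to 4.02%), 1 to 3 in Oligodendrocyte-like (2.30% to 4.12%) and 2 to 6 in Microglia-like cells (1.65% to 3.03%), and 3 to 5 in cluster 5 (2.65% to 3.90%). In Microglia-like cells it was 6 of 6 without Pb F2 (2.77% of all genes) and 5 of 6 without control M2 (3.03%). The Smooth muscle-like class gave no value at resolution 0.5, with stress genes in clustering or at the 10% limit. The number of cells limits the small classes, with 10 to 31 cells per mouse in Cajal-Retzius-like cells.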

Other observations

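Classes with too few mice for a test also held the 6 genes. Oligodendrocyte precursor-like cells, the dividing progenitors of oligodendrocytes, had Hsp90aa1 at 1294, 1504, 1838 and 2107 CPM in Pb F1, F2, M1 and M2 and 1177 CPM in control F2, the only control with 10 such cells. Hspd1 had 232, 270.0, 211 and 213 CPM there in the Pb mice and 146 CPM in that control. Hspb1 had 888, 916, 1108 and 768 CPM and 1001 CPM, so the control lay inside the range of the Pb mice.
Pericyte-like cells, the mural cells of capillaries, had Hspd1 at 318, 311 and 292 CPM in Pb F1, M1 and M2 and 183 CPM in control F2. Hsp90aa1 had 2439, 2236 and 1383 CPM in the Pb mice and 1599 CPM in the control, which lay within their range. Hspb1 had 1159 ± 364 UMIs per 1000 endothelial marker UMIs in these cells (SD, n = 4), above the Endothelial-like value in 4 of 4 mice.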
